A study of Mus musculus with 70 samples.

Results

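The hypothalamic control of growth hormone was examined through 7 genes: Ghrh, Ghsr, Sst, Sstr1, Sstr2, Sstr3 and Sstr4. These genes were taken by name from the 34677 gene rows of a bulk mRNA-Seq survey of the mouse brain, and all 7 were found. The survey held 70 libraries in 24 groups, and 57 of them came from 18 regions of untreated C57BL/6 mice at P56 (3 each of ACA, FRP, ENT, ACB, VTA, ARH, LHA, PB, DVC, UVU and CBN, 4 each of DMH, NTS, CENT2, CUL4,5 and FL, 2 each of PVH and VMH). Another 9 libraries came from 4 regions of C57BL/6 embryos at E14.5 (F, 1 library; THy/PHy, 3; M, 2; H, 3), and 4 came from B6-1 and B6-2, clones of mouse embryonic stem cells (mESC) derived from C57BL/6 mice, with 2 libraries each. No group carried a transgene, a deletion or a treatment. The adult mice were males of the C57BL/6NTac substrain, from which the embryos came too. A library pooled punches of frozen sections from several animals in nearly all cases, and the same animals contributed to several regions, so the libraries of different regions were not independent. The adult samples were collected and prepared in several batches. The labels do not say which libraries shared animals or a batch. The study's supplement lists a batch for each brain sample, but these were not matched to the libraries. Batch was therefore not a term of any fit, and its part in the differences between regions was not tested. The p-values measure the spread between libraries. In punched tissue, fewer cells of a type and less RNA per cell cannot be told apart.

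Growth hormone is released by the pituitary under opposing hypothalamic control. Growth hormone-releasing hormone, the product of Ghrh, drives its release and is made by neurons of the arcuate nucleus. Somatostatin, the product of Sst, inhibits release, and is also an inhibitory peptide of interneurons in cortex, striatum and many other areas. Ghsr encodes the receptor for ghrelin, a stomach hormone that promotes both feeding and growth hormone secretion. Sstr1 to Sstr5 encode the somatostatin receptors, which couple to inhibitory G proteins, and Sstr3 is known for its place in neuronal primary cilia.

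In GRCm38, all 7 genes are protein coding and share no exonic position with another gene. Ghrh lies on chromosome 2 (chr2:157329497-157347506, minus strand), as does Sstr4, a gene of 1 exon (chr2:148395344-148396767, plus strand). Ghsr is on chromosome 3 (chr3:27371351-27378010, plus strand) and Sst on chromosome 16 (chr16:23889573-23890958, minus strand). Sstr1 is on chromosome 12 (chr12:58211772-58214444, plus strand), Sstr2 on chromosome 11 (chr11:113619342-113626028, plus strand) and Sstr3 on chromosome 15 (chr15:78537008-78544685, minus strand).

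Sst has a close relative, Cort, which encodes cortistatin, a peptide that binds the same receptors. The coding stretch for the somatostatin-14 peptide, at the end of the Sst reading frame, is shown beside the best matching stretch of Cort because reads of 33 bases had to be told apart between them. Capitals mark bases that are identical in both, from the GENCODE transcripts of GRCm38.
Sst, exon 2, chr16:23889732-23889773, minus strand: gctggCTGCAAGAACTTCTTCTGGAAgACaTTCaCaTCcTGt
Cort, exon 2, chr4:149125270-149125311, minus strand: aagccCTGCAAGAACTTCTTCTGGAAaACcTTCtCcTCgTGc
Of the 42 bases, 31 were identical, and the longest identical run was 21 bases. No stretch of 31 bases was shared between any transcript of Sst and any transcript of Cort or of another gene. The same held for Ghrh, Ghsr, Sstr1, Sstr2 and Sstr4. Sstr3 shared 11 of its 4288 stretches of that length with Sstr5 (0.257%).

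Total counts per library ranged from 9074581 to 22229582. At this depth the median library held 1122 estimated counts for Sst, 252 for Sstr3, 120 for Sstr2, 117 for Sstr1 and 20 for Sstr4, but only 5 for Ghsr and 4 for Ghrh, so low values of these last genes rest on few reads. Of 28 adult region landmarks, 20 were highest in their own region, among them Agrp and Pomc in ARH and Hcrt in LHA. The exceptions were Sim1, Avp and Crh for PVH, Ppp1r17 and Grp for DMH, Calca and Foxp2 for PB, and Dbh for the caudal hindbrain, so neither landmark of DMH or of PB was highest there. In the embryo, 7 of 8 were, the exception being Nkx2-1, with a mean of 128 TPM in F and 108 TPM in THy/PHy. VTA replicate 1 stood apart, with 39.6% of its TPM in mitochondrial transcripts, followed by H replicate 1 with 22.6%; H replicate 1 also had the lowest total count.

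**Figure D1:**
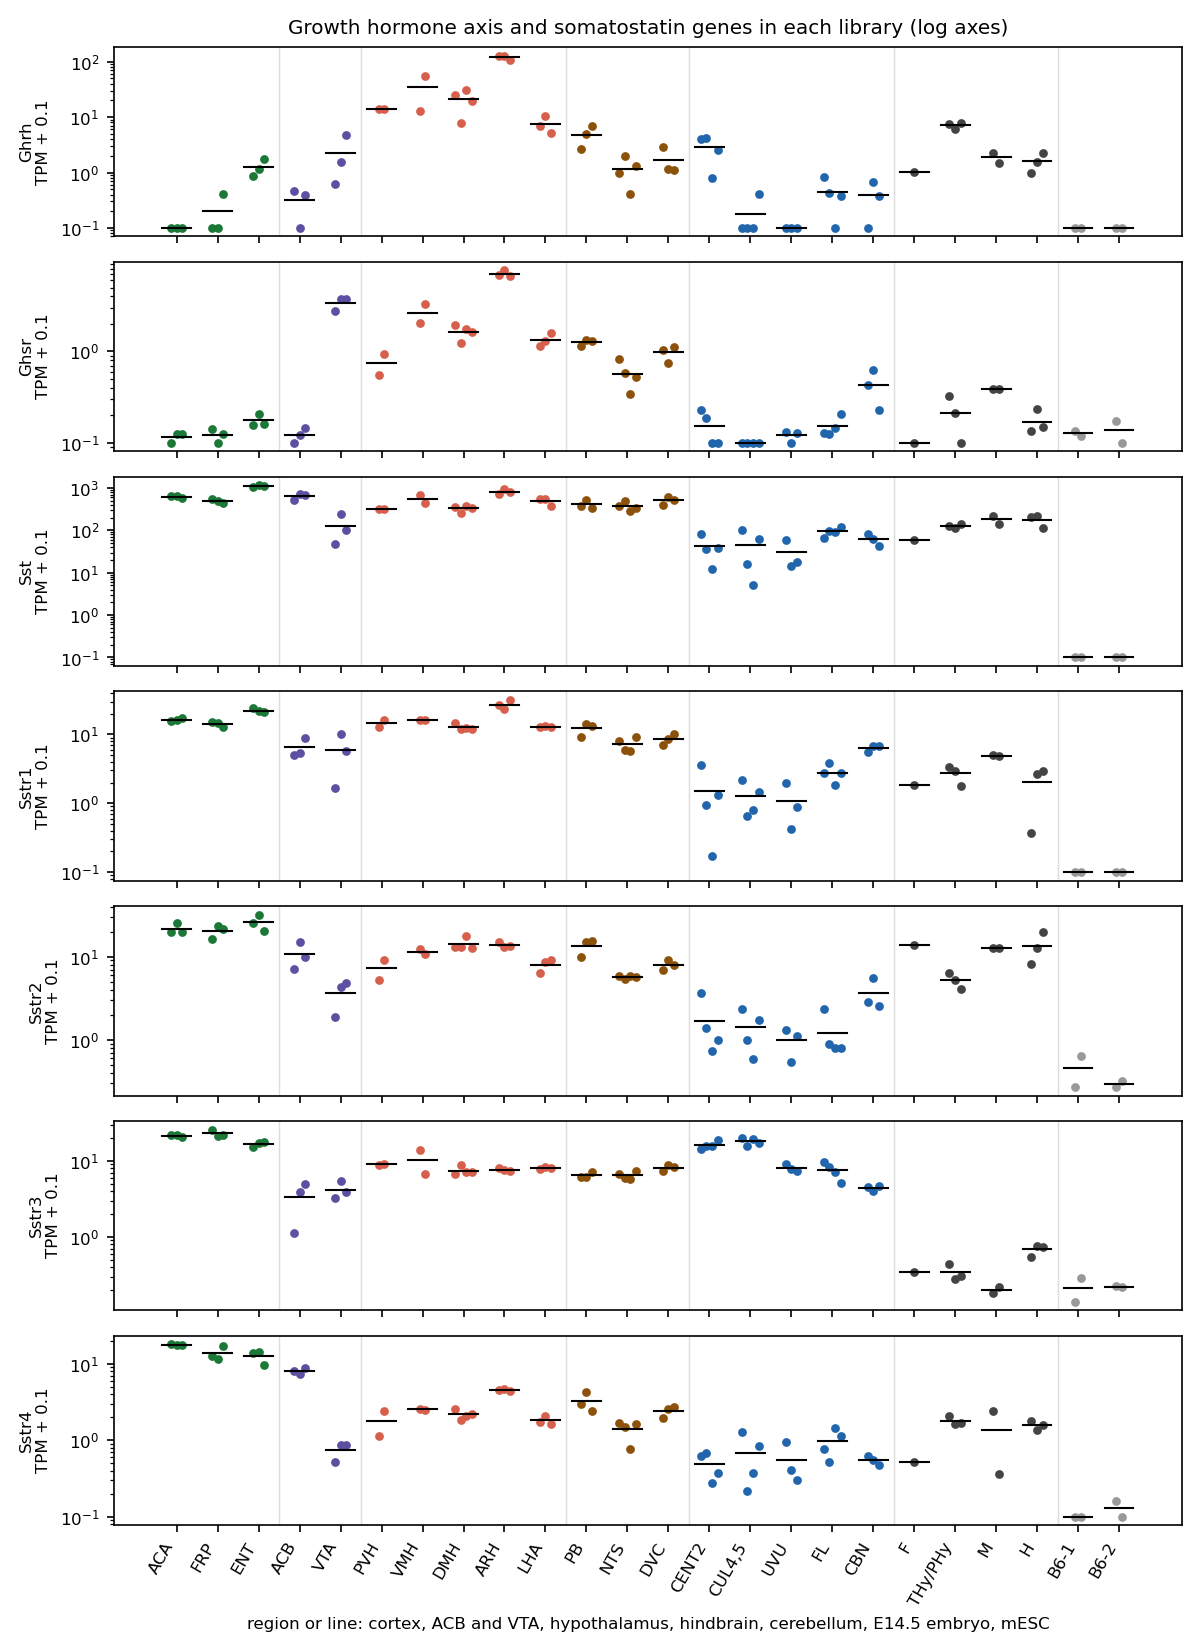
Level of each gene in every library, as TPM plus 0.1 on a log axis, by region or stem cell line. Points are libraries and bars are group means; Ghrh peaks in ARH (107 to 129 TPM), Sst spans from 1166 TPM in ENT to 0 in mESC, and Sstr3 stays at or below 0.668 TPM in the embryo.

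Regions were compared in 1 edgeR model of the counts, with 19980 genes tested. A gene was called where the adjusted p was under 0.05 and the absolute log2 fold change above 1. All 7 genes passed the filter on low counts. Each region or area was set against a stated mean of other regions, so the comparisons share libraries. A comparison that includes a region with 0 counts in every library has no finite mean on the log scale. Among the 7 genes this was so for Ghrh in ACA and UVU and for Ghsr in CUL4,5. In comparisons holding those regions, Ghrh and Ghsr are therefore given from limma on log2(TPM + 0.5), a scale that understates the change of low genes. Numbers of genes called are those of edgeR. For the 7 genes, the number called by limma is given beside them where it differs. For the other gene lists the limma number is not given in every comparison. Its absence there does not mean that the tools gave the same number. An edgeR call of Ghrh or Ghsr in comparisons holding those regions is counted but not read.

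Ghrh was highest in ARH. Its level was 129, 129 and 107 TPM in the 3 ARH libraries, with a mean of 121 ± 12.6 (SD, n = 3). VMH held 12.9 and 56.1 TPM, DMH 24.7, 7.65, 31.4 and 19.7 TPM, PVH 13.8 and 14.2 TPM, and LHA 6.84, 10.6 and 5.04 TPM. Each ARH library was above each of the 11 other hypothalamic libraries, while VMH, DMH and PVH overlapped, and LHA lay below VMH and PVH and overlapped with DMH. Ghrh was higher in ARH than in the mean of the other 4 nuclei by 2.82 ± 0.35 on the log2 scale (SE, edgeR, adjusted p = 1.93e-08), and lower in LHA than in the mean of the other 4 by 2.08 ± 0.46 (adjusted p = 0.000691).

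Beyond the hypothalamus, low levels of Ghrh were measured in PB (2.6, 4.77 and 6.76 TPM), in CENT2 (3.91, 4.07, 0.68 and 2.4 TPM) and in VTA (0.529, 1.48 and 4.57 TPM). The CENT2 values rest on 12, 11, 2 and 7 counts. PB and LHA overlapped, as did CENT2 and PB. No read of Ghrh was counted in ACA, in UVU or in either mESC line; 3 counts, the limit that a count of 0 allows, come to 0.155 to 0.172 CPM (counts scaled to the library total) in an ACA library and to 0.196 to 0.214 in a UVU library. ENT, at 0.76 to 1.63 TPM, was above FRP, where 2 of 3 libraries were at 0. On the log2(TPM + 0.5) scale, Ghrh was higher in the hypothalamus than in the mean of the other 13 adult regions by 4.37 ± 0.18 (limma, adjusted p = 3.94e-26).

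The level of Ghrh varied within VMH and DMH along with genes of Ghrh neurons. These genes are the transcription factors Gsx1, Hmx2 and Hmx3, the dopamine synthesis enzyme Th and the neuropeptide Gal. VMH replicate 2, with 56.1 TPM of Ghrh, held 17.7 TPM of Hmx3, 446 TPM of Gal and 105 TPM of Th, against 5.32, 113 and 37.8 TPM in VMH replicate 1. VMH replicate 2 also had the lower level of Nr5a1, a marker of VMH (21.4 against 45.8 TPM), while Agrp and Pomc, markers of ARH neurons, stood at 1.39 and 5.58 TPM there against 2.02 and 17.4 TPM in replicate 1. DMH replicate 2, with the lowest Ghrh of its group, had the lowest Hmx3 (1.41 TPM), Gal (26.8 TPM) and Th (34.2 TPM) of the 4 DMH libraries. ARH itself was above the other nuclei in Gsx1 by 2.08 ± 0.39, in Hmx2 by 1.84 ± 0.49 and in Hmx3 by 2.16 ± 0.53 (log2 ± SE, edgeR, adjusted p = 4.82e-05, 0.00446 and 0.00228). Of the 6 genes of this list, these 3 were called higher in ARH and none lower; Gal (0.83 ± 0.41) and Th (0.83 ± 0.37) were among those not called. The list had a median log2 fold change of 1.34, against 0.02 over all genes tested, of which 6.90% were called (4.71% higher).

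**Figure D2:**
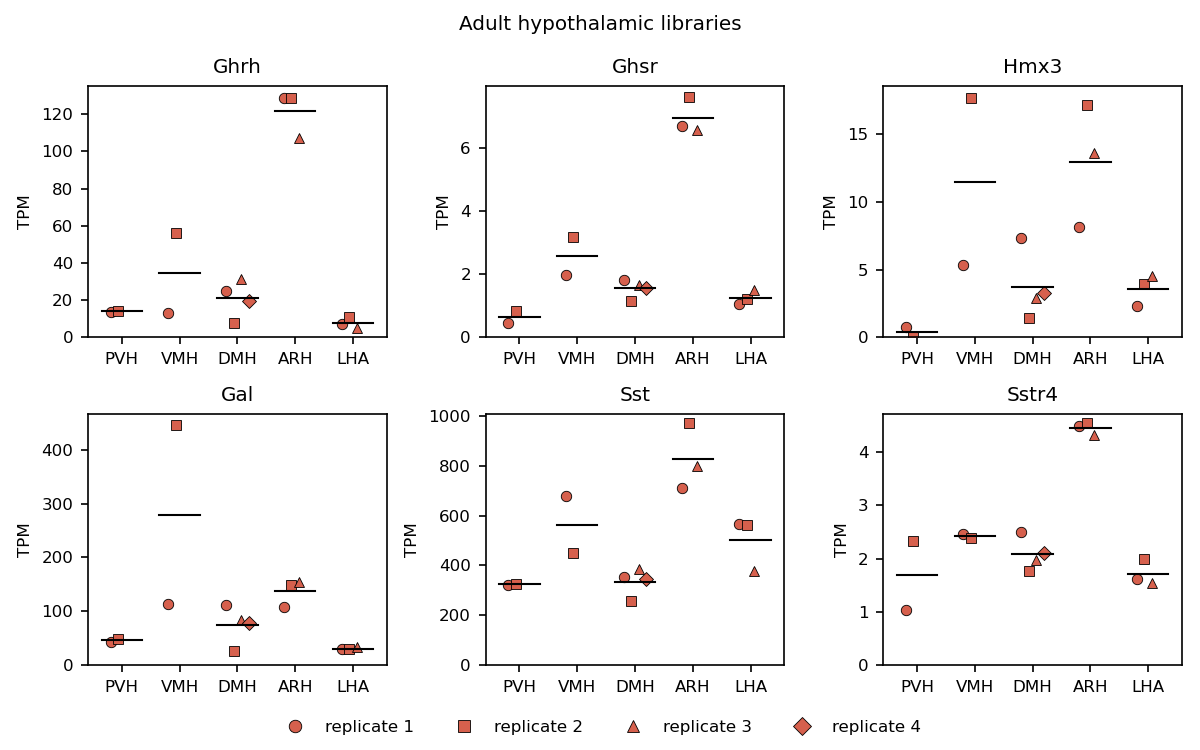
TPM of Ghrh, Ghsr, Hmx3, Gal, Sst and Sstr4 in the 14 adult hypothalamic libraries, with a marker shape for each replicate number and a bar at the mean of each nucleus. The 3 ARH libraries lie above all others for Ghrh, Ghsr and Sstr4, and VMH replicate 2 has the highest Gal (446 TPM).

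Ghsr, the ghrelin receptor, was also highest in ARH, at 6.71, 7.62 and 6.59 TPM (6.97 ± 0.564, SD, n = 3). VTA came next, at 2.67, 3.64 and 3.66 TPM, and overlapped with VMH (1.96 and 3.17 TPM). DMH held 1.15 to 1.83 TPM, LHA 1.04 to 1.49 TPM, PB 1.05 to 1.24 TPM and DVC 0.651 to 1.03 TPM. The ARH libraries lay above all others, and the VTA libraries above those of DMH, LHA and every hindbrain nucleus. ARH was above the mean of the other 4 nuclei by 2.32 ± 0.34 (log2 ± SE, edgeR, adjusted p = 5.09e-07).

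PVH held the least Ghsr of the hypothalamic nuclei, at 0.45 and 0.844 TPM. PVH was below the mean of the other 4 nuclei by 1.88 ± 0.52 (edgeR, log2 fold change -1.88, adjusted p = 0.0186), and the difference was -1.52 without replicate 1 and -2.36 without replicate 2. Neither of these was called (adjusted p = 0.475 and 0.0877), but each sets 1 PVH library against the rest and assumes that it varies like the other groups, so they say little on the stability of the call. In cortex, ACB and cerebellar cortex no library exceeded 0.129 TPM of Ghsr, and CUL4,5 had 0 counts in its 4 libraries. The cerebellar nuclei (CBN) held 0.129, 0.329 and 0.532 TPM. On the log2(TPM + 0.5) scale, VTA was above the mean of the other 17 adult regions by 1.92 ± 0.12 (limma, adjusted p = 1.41e-17), and the hypothalamus above the other 13 by 1.65 ± 0.07 (adjusted p = 6.67e-27). VTA replicate 1, with its high mitochondrial share, had the lowest TPM of Ghsr of the 3 VTA libraries but the most counts, 199 of 19285427 against 161 of 17938125 in replicate 2 and 182 of 18524408 in replicate 3.

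Within the hypothalamus, 3 of the 7 genes were called in ARH, all higher (Ghrh, Ghsr and Sstr4), where 6.90% of all genes tested were called. None was called in VMH or in DMH, where the background was 1.47% and 0.601%. At an unadjusted edgeR p under 0.05 there were 0 of the 7 genes in VMH and 1 in DMH (Sstr2). With limma it was 1 in each (Ghsr), and with DESeq2 0 and 1 (Sstr2), and neither tool called any of the 7 in these nuclei. In PVH 1 was called (Ghsr, background 2.03%), and in LHA 1 (Ghrh, background 5.05%). Sst and Sstr1 were also above the other nuclei in ARH, by 0.92 ± 0.34 (adjusted p = 0.0398) and 0.90 ± 0.31 (adjusted p = 0.0268), but stayed under the fold threshold. With the replicate number as a block, Sst reached 1.01 and was called.

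The ARH libraries also carried transcripts of the adjoining pituitary. Of 11 pituitary markers, 7 had their highest adult mean in ARH, and their summed level was 92.8 to 134 TPM there against 1.94 to 55.1 TPM in the other hypothalamic libraries. None of the 11 was at 0 in all 3 ARH libraries. Cga, the common subunit of the glycoprotein hormones, made up most of it, at 67.3, 93.7 and 75.8 TPM in ARH and at most 0.471 TPM in another hypothalamic library. Gh itself stood at 0.771, 7.39 and 15.6 TPM in the 3 ARH libraries but did not set ARH apart, since single libraries reached 22.9 TPM in ENT, 22.3 TPM in NTS, 15.8 TPM in DVC and 12.4 TPM in LHA. In ARH Ghrhr, the pituitary receptor for Ghrh, did not exceed 0.231 TPM. The part of pituitary tissue in the ARH levels of Ghsr and the somatostatin receptors was not tested.

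Sst had the highest mean TPM of the 7 genes in each of the 22 brain regions, and it was detected in all 66 brain libraries. ENT had the highest level, at 1063, 1166 and 1138 TPM, above every other library. ARH followed at 710, 973 and 797 TPM, and overlapped with ACB (531, 714 and 684 TPM). ACA held 590 to 660 TPM, VMH 450 and 677 TPM, DVC 401 to 600 TPM, LHA 378 to 564 TPM and FRP 454 to 543 TPM. From ARH down to PVH, each region overlapped with its neighbour in this order; over the whole order, 19 of 21 neighbouring pairs of regions overlapped. In the cortex (ACA, FRP and ENT) Sst was higher than in the mean of the other 15 adult regions by 1.88 ± 0.18 on the log2 scale (SE, edgeR, adjusted p = 2.54e-13). In ACB it was higher by 1.42 ± 0.28 than in the other 17 regions (adjusted p = 3.43e-05). In the hypothalamus it was higher by 1.18 ± 0.16 than in the other 13 (adjusted p = 2.72e-08).

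Cort, the relative of Sst, had a narrower pattern, with means of 21.7 TPM in ENT, 11.4 TPM in ACA, 9.36 TPM in FRP and 5.56 TPM in ACB, and no library of another adult region above 2.09 TPM. Genes known from Sst interneurons were described beside it. Of 10 such genes, 5 were called higher in the cortex (Lhx6, Satb1, Elfn1, Crhbp and Npy) and 1 lower (Chodl), with a median log2 fold change of 0.93 against -0.03 over all genes tested and a background of 8.17% higher and 7.94% lower. In ACB 3 of the 10 were called higher (Lhx6, Crhbp and Npy) and none lower (background 7.30% higher and 5.49% lower). With limma 2 were called higher there. In ARH Npy was called higher and Lhx6 lower (background 6.90%).

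In the cortex, 5 of the 7 genes were called and all 5 were higher: Sst and the 4 receptor genes (background 16.1%). Sstr4 differed most, with 17.9, 17.6 and 17.3 TPM in ACA, 12.5, 11.5 and 16.9 TPM in FRP and 13.8, 14.2 and 9.46 TPM in ENT. Outside the cortex no adult library exceeded 8.7 TPM, so the cortical libraries did not overlap with the rest. Sstr4 was higher by 3.47 ± 0.15 (log2 ± SE, edgeR, adjusted p = 8.91e-27), Sstr2 by 2.33 ± 0.13 (adjusted p = 1.55e-21), Sstr1 by 1.60 ± 0.17 (adjusted p = 8.57e-12) and Sstr3 by 1.53 ± 0.09 (adjusted p = 2e-20). Ghrh and Ghsr were lower in the cortex on the log2(TPM + 0.5) scale (-2.10 ± 0.21 and -1.20 ± 0.08, limma, adjusted p = 2.5e-12 and 1.91e-19), so that limma called all 7. The summed level of 4 neuron markers was 2780 to 4822 TPM in the cortical libraries and 1430 to 3714 TPM in the other adult libraries; its part in the receptor differences was not tested. All 4 oligodendrocyte markers were called lower in cortex, ARH, THy/PHy and H and higher in LHA, VTA, the hindbrain nuclei and CBN, and their part in the differences of those areas was not tested either.

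ACB, a part of the ventral striatum, had a distinct set of receptors. Sstr4 stood at 7.95, 7.24 and 8.7 TPM, above every adult library outside the cortex and below every cortical one. Sstr3 stood at 1.01, 3.78 and 4.93 TPM, and replicate 1 held the least Sstr3 of all adult libraries. Against the other 17 adult regions, Sstr4 was higher by 2.07 ± 0.23 (edgeR, adjusted p = 1.34e-10), and Sstr3 was lower (-1.52 ± 0.20, adjusted p = 1.15e-08; -1.10 without replicate 1). Sstr2 (0.78 ± 0.23) and Sstr1 (-0.25 ± 0.32) were not called, but without replicate 1 Sstr2 reached 1.01 and was called (edgeR, adjusted p = 0.00209). In all, 3 of the 7 genes were called in ACB (background 12.8%), and limma called Ghrh and Ghsr lower as well (-2.03 ± 0.35 and -1.11 ± 0.12).

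In the hypothalamus as a whole, 4 of the 7 genes were called, all higher (Ghrh, Ghsr, Sst and Sstr1; background 8.84%). Of Sstr1 to Sstr4, Sstr1 alone was called. It reached 26.5, 23 and 31.5 TPM in ARH, the highest mean of any region, with ENT next at 20.7 to 23.9 TPM and overlapping. The other 4 nuclei held 11.7 to 16.1 TPM. The hypothalamus was above the other 13 adult regions by 1.45 ± 0.15 (log2 ± SE, edgeR, adjusted p = 1.36e-11). Sstr2 was higher by 0.93 ± 0.13 (adjusted p = 2.87e-08), short of the fold threshold, while Sstr3 (-0.22 ± 0.09) and Sstr4 (0.14 ± 0.15) differed little. Within the hypothalamus Sstr4 set ARH apart, at 4.49, 4.55 and 4.32 TPM against at most 2.5 TPM in any other hypothalamic library (1.12 ± 0.30, adjusted p = 0.00387).

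**Figure D3:**
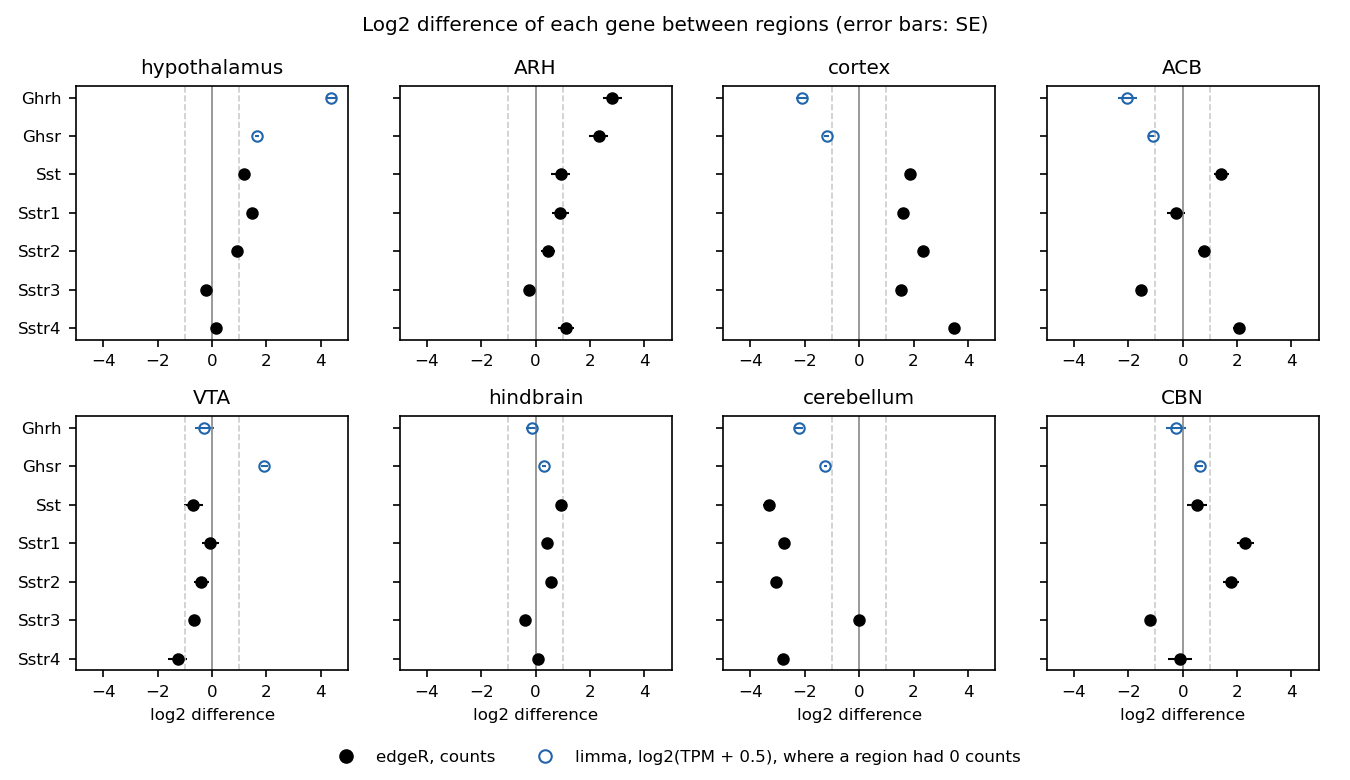
Log2 difference of each gene (x axis) in 8 comparisons of adult regions, with SE bars; dashed lines mark the fold threshold. Filled points are edgeR values and open points limma values on log2(TPM + 0.5) for genes with 0 counts in a region. Cortex stands to the right for Sst and the receptors (Sstr4, 3.47) and cerebellum to the left, except for Sstr3 (0.01).

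In VTA, the seat of midbrain dopamine neurons, edgeR called 3 of the 7 genes (background 10.5%): Ghsr and Ghrh higher and Sstr4 lower. With limma 4 were called, Ghsr, Sst, Sstr3 and Sstr4. Sstr4 was at 0.413, 0.772 and 0.756 TPM and lower than in the mean of the other 17 adult regions (-1.27 ± 0.36, adjusted p = 0.00343). Ghrh was not called by limma (-0.28 ± 0.35), and the edgeR call was lost without VTA replicate 3, the library with the most Ghrh (adjusted p = 0.587). Sst was at 47.6, 242 and 101 TPM, the lowest in replicate 1. In TPM, the median gene of the VTA comparison was shifted by -0.39 (limma), against -0.01 in the edgeR fit. The limma values for Sst (-1.23 ± 0.41) and Sstr3 (-1.10 ± 0.17) were called. The edgeR values of -0.69 ± 0.35 and -0.65 ± 0.19 were not. The part of the shift in these differences between the tools was not tested.

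In the hindbrain nuclei PB, NTS and DVC, edgeR called 1 of the 7 genes, Ghsr (background 7.84%), and limma 0. On the log2(TPM + 0.5) scale its difference was 0.32 ± 0.07, under the fold threshold. Sst was at 291 to 600 TPM in the 10 libraries, higher than in the other 15 adult regions by 0.94 ± 0.18 (edgeR, adjusted p = 1.93e-05), also under that threshold. Sstr1 (0.42 ± 0.18), Sstr2 (0.57 ± 0.15) and Sstr3 (-0.40 ± 0.11) moved by less than the threshold too. PB had more Sstr2 (9.92, 15 and 15.5 TPM) than each NTS library (5.32 to 5.83 TPM).

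The cerebellum was low in Sst and in all receptors but 1. Of the 7 genes, 5 were called and all were lower than in the other 13 adult regions (background 15.9%). Sst was lower (-3.32 ± 0.20, edgeR, adjusted p = 1.23e-20), as were Sstr2 (-3.04 ± 0.15, adjusted p = 7.44e-24), Sstr4 (-2.80 ± 0.18, adjusted p = 1.43e-19) and Sstr1 (-2.77 ± 0.18, adjusted p = 5.95e-19). Ghsr was lower too (-1.25 ± 0.06 with limma), as was Ghrh with limma (-2.22 ± 0.17), which called 6 genes. Sstr3 differed by 0.01 ± 0.08. All 5 choroid plexus markers were called higher in the cerebellum (median 3.17), and 4 with limma. Folr1 was at 0 TPM in all 3 ACB libraries, so its edgeR call is counted but not read. All 4 microglia markers were called lower, and 3 with limma. Their summed level was 22.7 to 71.9 TPM against 37.8 to 132 TPM in the other adult libraries. The astrocyte markers Gfap and Aqp4 were called higher, and limma called 3 of the 4 astrocyte markers. The 4 astrocyte markers summed to 428 to 1040 TPM against 232 to 563 TPM. The part of these cell types in the cerebellar differences was not tested.

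Sstr3 was abundant in the vermal lobules at the front of the cerebellum. CENT2 held 14.4, 15.7, 15.7 and 18.5 TPM and CUL4,5 held 20.2, 15.6, 19.5 and 16.9 TPM, overlapping with ENT (15.2 to 17.8 TPM). UVU held 7.23 to 8.97 TPM and FL 4.95 to 9.46 TPM, both below every CENT2 and CUL4,5 library. CBN, the output nuclei, held 3.9 to 4.65 TPM, below every library of cerebellar cortex.

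Sst varied widely among the lobules. It was 83.4, 35.9, 12.1 and 37.8 TPM in CENT2, 101, 15.9, 5.01 and 61 TPM in CUL4,5 and 57.6, 14.1 and 18.3 TPM in UVU. In each lobule the library with the most Sst, replicate 1, also had the most Sstr1 (3.49, 2.08 and 1.88 TPM) and the most Sstr2 (3.56, 2.26 and 1.22 TPM). The same 3 libraries had the lowest Gabra6, a marker of granule cells, of their lobule (408, 633 and 456 TPM); its part in these levels was not tested. FL was more even, at 67.2 to 121 TPM of Sst. Without CENT2, CUL4,5 or UVU replicate 1, the cerebellar difference in Sst was -3.43, -3.46 and -3.50.

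Within the cerebellum, the receptor genes of CBN differed from those of the 4 regions of cerebellar cortex. In all, 4 of the 7 genes were called (background 16.5%), and with limma 3, without Ghsr. Markers of choroid plexus moved with this comparison: all 5 of them (Ttr, Folr1, Kl, Clic6 and Kcne2) were called higher in CBN, with a median log2 fold change of 4.75 against 0.03 over all genes tested. Their summed level was 3540 to 12752 TPM in CBN and 6.87 to 3065 TPM in cerebellar cortex. Of the 4 microglia markers, edgeR called 3 higher in CBN (Cx3cr1, P2ry12 and Tmem119) and limma 0. The summed level of the microglia markers was 58.5 to 71.9 TPM against 22.7 to 54.2 TPM. The part of these cell types in the receptor differences was not tested. Sstr1 was at 5.54, 6.65 and 6.62 TPM in CBN and at most 3.73 TPM in cerebellar cortex (2.30 ± 0.32, edgeR, adjusted p = 3.25e-08). Sstr2 was higher by 1.79 ± 0.29 (adjusted p = 6.59e-07), although CENT2 replicate 1, at 3.56 TPM, was above 2 of the 3 CBN libraries (2.72 and 2.46 TPM). Sstr3 was lower (-1.19 ± 0.20, adjusted p = 1.97e-06). Ghsr differed by 0.62 ± 0.13 on the log2(TPM + 0.5) scale. Sst, at 80.3, 62.6 and 42.8 TPM in CBN, was within the range of cerebellar cortex (0.54 ± 0.37, adjusted p = 0.235).

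Since TPM is scaled by transcript length, the receptor genes could be set side by side within a region. The summed TPM of Sstr1 to Sstr5 was highest in cortex, at 77.2 ± 8.14 in ENT, 76.8 ± 3.25 in ACA and 71.1 ± 1.62 in FRP (SD, n = 3), followed by ARH with 56.7 ± 4.64. It was lowest in THy/PHy with 9.79 ± 2.23 and in UVU with 10.3 ± 2.29. As a mean share of this sum, Sstr1 led in 8 regions, Sstr2 in 8 and Sstr3 in 6; Sstr4 and Sstr5 led in none. The shares are descriptions and were not tested.

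Sstr1 led in ARH with 47.4% ± 4.02, and in every library of PVH, VMH, LHA and CBN. By its mean share it also led in VTA, NTS and DVC, but not in every library. In DVC its share was 30.9% ± 3.2, with Sstr3 at 29.6% ± 1.53 and Sstr2 at 28.8% ± 1.66, which overlap, and in NTS it was 34.1% ± 3.55, with Sstr3 at 30.8% ± 1.2. In VTA replicate 1 Sstr3 stood at 3.15 TPM and Sstr1 at 1.56 TPM. Sstr2 led in every library of PB and of the 4 embryonic regions, and by its mean share in ENT, ACB and DMH. In ENT replicate 3 Sstr1 (20.7 TPM) and in DMH replicate 1 Sstr1 (14.6 TPM) were above Sstr2 (20.4 and 13 TPM), as was Sstr4 in ACB replicate 1 (7.95 against 6.95 TPM). Sstr3 led in the cerebellar cortex, with 85.8% ± 7.28 in CUL4,5, 83% ± 13 in CENT2, 78.3% ± 8.87 in UVU and 61% ± 5.37 in FL (SD, n = 4, 4, 3 and 4). In ACA and FRP Sstr3 led narrowly, at 27.9% ± 0.85 and 32.4% ± 3.87, with Sstr2 at 27.7% ± 2.87 and 28.6% ± 4.84, which overlap. The largest share of Sstr4 was 28.5% ± 7.01 in ACB. Sstr5, which was measured as a partner gene, did not exceed 7.28% ± 0.389, its share in ARH.

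**Figure D4:**
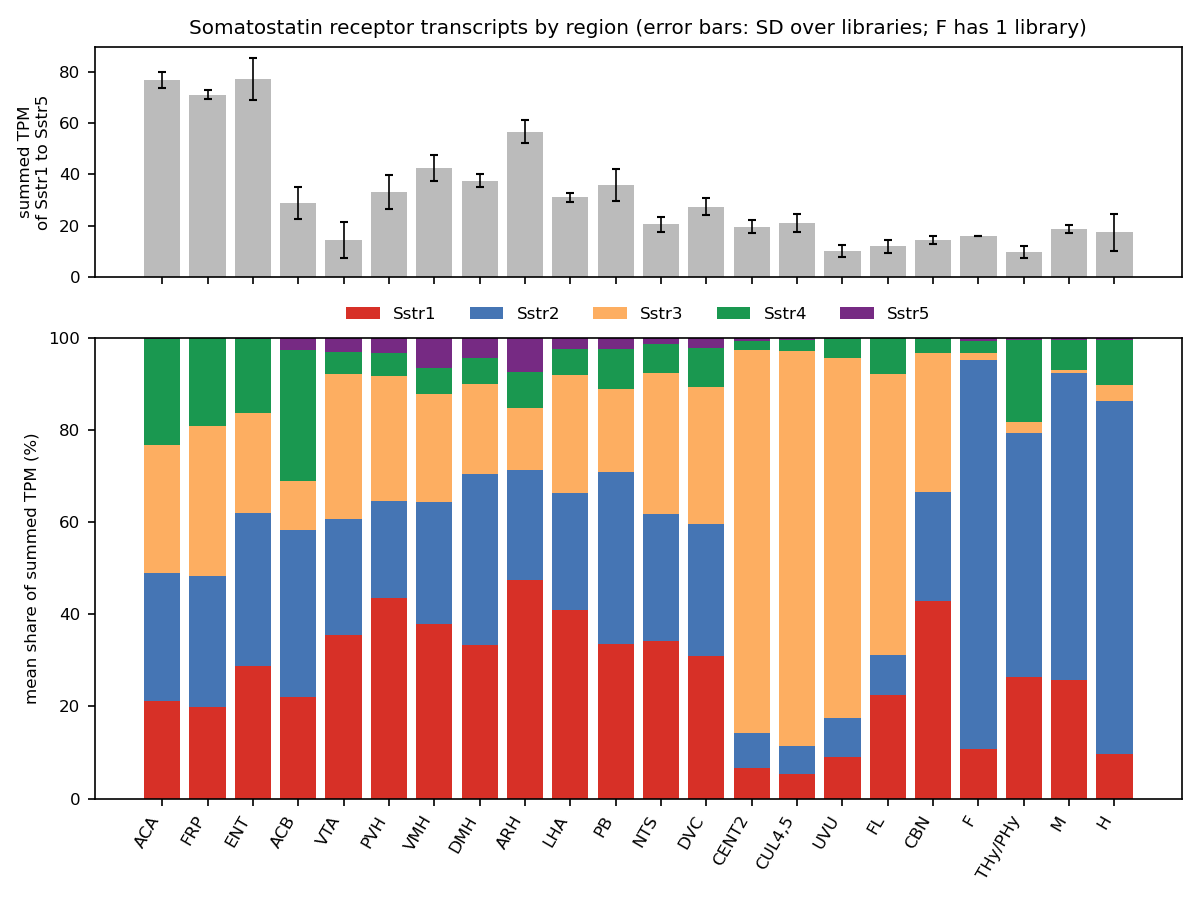
Upper panel, summed TPM of Sstr1 to Sstr5 in each brain region with SD bars; lower panel, mean share of each receptor in that sum, in percent. Sstr3 makes up 61% to 85.8% in the 4 regions of cerebellar cortex, and Sstr2 52.9% to 84.6% in the 4 embryonic regions.

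Embryonic hypothalamus and hindbrain were compared with the adult nuclei of the same area. The embryonic and adult samples were collected and prepared in separate batches, so stage and batch cannot be told apart. THy/PHy was below the mean of the 5 adult nuclei in 5 of the 7 genes (background 38.2%). H was below the mean of PB, NTS and DVC in 4 of the 7 (background 44.0%). None of the 7 was called higher in the embryo. Of 5 choroid plexus markers, 4 were called higher in H (Ttr, Folr1, Clic6 and Kcne2) and Kl lower, with a median log2 fold change of 3.72. Their summed level was 601 to 2028 TPM in H against 2.67 to 10706 TPM in the adult hindbrain, where 1 NTS library was the highest. All 4 astrocyte and all 4 microglia markers were called lower in THy/PHy, and 3 of each in H. With limma all 4 microglia markers were called lower in H. The astrocyte markers summed to 40.7 to 72.5 TPM in THy/PHy and 94.2 to 174 TPM in H, against 389 to 563 and 265 to 381 TPM in the adult nuclei. The microglia markers summed to 24 to 25.5 TPM and 15.3 to 44.1 TPM, against 72.6 to 99.2 and 53.8 to 75.6 TPM. The part of these cell types in the stage differences was not tested.

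Sstr3 was the gene with the widest gap between stages. It was at 0.345, 0.18 and 0.202 TPM in THy/PHy, where the adult hypothalamic libraries held 6.58 to 13.9 TPM (-5.07 ± 0.32, edgeR, adjusted p = 2.79e-20). In H it was at 0.446, 0.668 and 0.647 TPM, against 5.65 to 8.74 TPM in the adult hindbrain (-3.45 ± 0.28, adjusted p = 4.61e-16). These embryonic values rest on 7 to 27 counts per library. No embryonic library overlapped with an adult one.

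Sstr1 was lower in both areas as well, at 3.29, 2.88 and 1.7 TPM in THy/PHy (-2.55 ± 0.40, adjusted p = 1.97e-07) and at 0.266, 2.59 and 2.86 TPM in H (-2.16 ± 0.41, adjusted p = 7.6e-06). H replicate 1 was the low library, with 3 counts, and without it the difference in H was -1.77 ± 0.44. Ghsr was nearly undetected, at 0.228, 0.113 and 0 TPM in THy/PHy (-4.02 ± 0.54, adjusted p = 6.3e-09) and at 0.0327 to 0.131 TPM in H (-3.26 ± 0.58, adjusted p = 2.35e-06). Sst was present at a lower level, at 124, 112 and 142 TPM in THy/PHy (-1.88 ± 0.41, adjusted p = 6e-05) and at 203, 213 and 112 TPM in H (-1.10 ± 0.39, adjusted p = 0.0111). The call for Sst in H was lost without H replicate 3 (-0.73 ± 0.44, adjusted p = 0.139).

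Ghrh was already measured in THy/PHy, at 7.36, 6.08 and 7.58 TPM, above every other embryonic library (0.86 to 2.19 TPM). It was below the mean of the adult nuclei (-1.74 ± 0.45, adjusted p = 0.000638), yet within the range of adult LHA. Other genes of Ghrh neurons were called in both directions. The transcription factors Gsx1, Hmx2 and Hmx3 were higher in THy/PHy by 3.13 ± 0.35, 3.25 ± 0.44 and 2.23 ± 0.50 (adjusted p = 3.28e-11, 1.92e-08 and 0.000149), whereas the neuropeptide gene Gal was lower, as Ghrh was (-3.18 ± 0.54, adjusted p = 9.79e-07).

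Sstr2 and Sstr4 showed no called difference between stages. Sstr2 was at 6.32, 5.2 and 4 TPM in THy/PHy, with a mean of 5.17 TPM against 10.8 TPM in the adult nuclei (adjusted p = 0.00228, at the edge of the fold threshold). In H it was at 8.05, 12.6 and 19.8 TPM, against 5.32 to 15.5 TPM in the adult hindbrain (0.71 ± 0.27, adjusted p = 0.016). The stage difference in the hypothalamus minus that in the hindbrain was -1.70 ± 0.39 for Sstr2 (edgeR, adjusted p = 0.000782) and -1.62 ± 0.45 for Sstr3 (adjusted p = 0.00437). These were the 2 of 7 genes called in that comparison (background 9.84%), which was added after the levels were seen. With limma the Sstr3 difference was -0.79 ± 0.26 and was not called. Sstr2 was also at 13.7 TPM in F and at 12.6 and 12.5 TPM in M. The summed neuron markers were 1568 to 1947 TPM in THy/PHy against 1430 to 2621 TPM in adult hypothalamus, and 519 to 1885 TPM in H against 2883 to 3486 TPM in adult hindbrain, lowest in H replicate 1; their part in these differences was not tested.

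**Figure D5:**
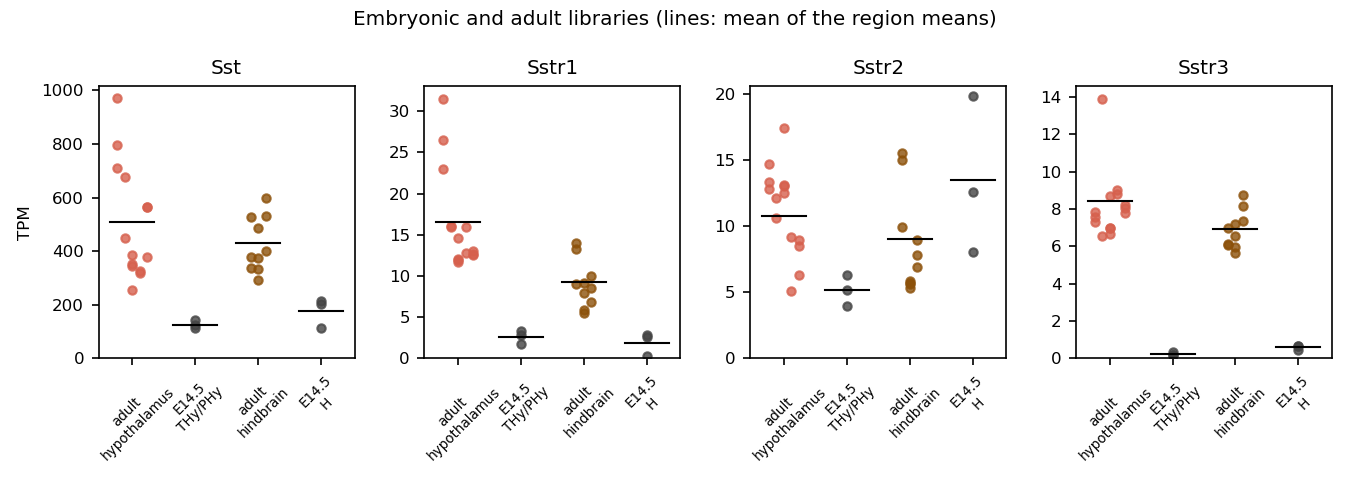
TPM of Sst, Sstr1, Sstr2 and Sstr3 in adult hypothalamus, THy/PHy, adult hindbrain (PB, NTS and DVC) and H; points are libraries, and lines are the mean of the region means. Sstr3 lies at or below 0.668 TPM in every embryonic library shown and at or above 5.65 TPM in every adult one, whereas Sstr2 of H (8.05 to 19.8 TPM) overlaps with the adult hindbrain.

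In mESC, Sst, Ghrh and Sstr1 had 0 counts in all 4 libraries. A count of 3 would be 0.162 to 0.231 CPM there. Sstr2 was at 0.171 to 0.541 TPM, Sstr3 at 0.0401 to 0.191 TPM, Ghsr at 0 to 0.0726 TPM, and Sstr4 at 0.062 TPM in 1 library and 0 in the others.

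Partner genes of the growth hormone and insulin-like growth factor pathway were described next. Of 20 such genes, 19 were tested. In the hypothalamus 2 were called higher, Ghr (1.18 ± 0.08) and Mrap2 (1.37 ± 0.10), and 3 lower (Igfals, Igfbp2 and Igfbp4), where 8.84% of all genes tested were called. Igfals was at 0 TPM in every PVH and DMH library, so its edgeR call is counted but not read. With limma 2 were called lower. Ghr encodes the growth hormone receptor, and Mrap2 an accessory protein of melanocortin and ghrelin receptors. In ARH 5 were called higher (Ghr, Igf2, Igfbp2, Igfbp4 and Stat5a) and none lower, with a median log2 fold change of 0.73 against 0.02 over all genes and a background of 6.90%. In the same comparison limma called 5 pituitary markers higher and all 4 oligodendrocyte markers lower. The choroid plexus markers Kl and Clic6 were called higher by edgeR but not by limma. The part of these tissues in the differences of the list was not tested. Ghr had a mean of 23.7 TPM in ARH against 10 TPM over the other nuclei (1.29 ± 0.17, edgeR, adjusted p = 3.72e-08), and Stat5a, a transcription factor downstream of it, 6.19 against 2.29 TPM (1.47 ± 0.19, adjusted p = 4.21e-08). Ghrl, which encodes ghrelin, was not called in the hypothalamus (0.19 ± 0.17).

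The same list was also described in the embryo. In THy/PHy 8 of the 19 were called higher, among them Igf2 (3.67 ± 0.41), Igfbp4 (3.31 ± 0.19) and Igf1r (1.28 ± 0.07), and 2 lower (Mrap2 and Stat5b). With limma 7 were called higher and 3 lower. Over all genes tested, 38.2% were called in that comparison (18.2% higher). In H 9 were called higher, Igf2 by 5.36 ± 0.46 and Igf1 by 3.40 ± 0.30, and Mrap2 and Stat5b were again lower, where 44.0% of all genes tested were called (23.0% higher). With limma 8 were called higher in H. The median over the list was 0.91 in THy/PHy and 0.89 in H, against 0.00 and 0.02 over all genes tested. Mrap2 had means of 1.09 TPM in THy/PHy and 1.35 TPM in H, against 29.7 and 38.9 TPM in the adult nuclei (-4.71 ± 0.34 and -4.76 ± 0.34, edgeR, adjusted p = 5.3e-18 and 3.25e-18).

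Of 15 partners of the somatostatin system, all were tested. In the cortex 5 were called higher and none lower (4 and none with limma). The 5 were Cort, the potassium channel subunits Kcnj3 (1.15 ± 0.08), Kcnj6 (1.23 ± 0.10) and Kcnj9 (1.00 ± 0.06), and the prohormone convertase Pcsk2 (1.23 ± 0.06). These channels act downstream of inhibitory receptors. Cort was at 0 TPM in all 3 VTA libraries, and Sstr5 in all 4 FL libraries. An edgeR call of either gene in a comparison holding that region is counted but not read. The median of the 15 was 0.59 against -0.03 over all genes, of which 8.17% were called higher and 7.94% lower. In the cerebellum 1 was called higher, Cacna1a (1.38 ± 0.04), and 4 lower (Sstr5, Cacna1b, Pcsk1 and Pcsk2), against 7.37% higher and 8.53% lower over all genes. The call of Sstr5 there is not read, because FL is one of the cerebellar regions, and limma called 3 partners lower. In ARH Sstr5 alone was called, at 4.45, 3.75 and 4.18 TPM (1.51 ± 0.38, edgeR, adjusted p = 0.00219). It was also called by edgeR in the hypothalamus as a whole, but that call is not read, since FL is among the regions compared against. Sstr5 was at 0.683 to 4.45 TPM in the hypothalamic libraries and at most 0.991 TPM in any other adult library. In THy/PHy and in H, 10 were called lower and 1 higher, Gnai3, with medians of -2.06 and -1.48. With limma 9 were called lower in THy/PHy and 8 in H. The backgrounds were 38.2% in THy/PHy and 44.0% in H (21.1% lower). In ACB Kcnj3 (-1.40 ± 0.16), Kcnj6 (-1.13 ± 0.21) and Pcsk1 were lower (background 12.8%). Cort and Sstr5 were called higher there by edgeR, but these calls are not read. With limma 1 partner was called higher and 2 lower.

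The genes whose levels followed each of the 7 most closely were listed by Pearson r of log2(mean TPM + 1) over the 22 brain regions. The regions share animals, and stage adds to every such value. For Ghrh these included Irs4 (r = 0.967), Gm45194, 4933403O08Rik and Kcnj5 (0.934), and for Ghsr Il13ra1 (0.897), Gpr179, Gpr165, Cngb1 and Rnase6 (0.854). For Sst they were Myh7 (0.93), Gabra5, Ppp2r2b, Lrfn2 and Hs3st4 (0.92). Among receptors, Sstr1 was followed by Slc2a5 (0.959), Kctd4, Gabra3, Arhgef28 and Cyb561d2, and Sstr2 by Sdk2 (0.916), Zfp575, Enc1, Smyd5 and Stx1a. Sstr3 was followed by Camta2 (0.952), Ywhah, Bhlhe40, Ankrd34a and Pitpnm3, and Sstr4 by Kcnv1 (0.967), Plekhg5, Fhl2, Dlgap2 and Chn1. Among the 7 genes themselves, r was 0.891 between Sst and Sstr1, 0.797 between Sst and Sstr4, 0.781 between Sst and Sstr2 and 0.254 between Sst and Sstr3. It was 0.805 between Ghrh and Ghsr, and 0.386 between Ghrh and Sst.

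At the level of transcripts, Ghsr, Sst, Sstr3 and Sstr4 each had 1 transcript in the files. Sstr2 was assigned mostly to its longest transcript in the brain (25.5 of a mean 25.7 TPM in ENT), and Sstr1 mostly to its longer transcript (22 TPM in ARH against 4.98 TPM for the shorter). Ghrh was split between a transcript of 516 bases and one of 503 bases, with means of 61.9 and 58.8 TPM in ARH. The split changed from library to library, with 77 and 51.6 TPM in ARH replicate 1 and 26.8 and 77.7 TPM in ARH replicate 3, and LHA was assigned to the shorter of them alone. With reads of 33 bases, the assignment between these transcripts was not read further.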

How the data were processed

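Per the study's methods, punched tissue gave stranded poly(A) libraries, sequenced with 33 cycles and processed with CASAVA 1.8.2 and kallisto against Ensembl GRCm38 cDNA. The deposited TPM values (by gene and by transcript) and the estimated counts per transcript were made by the authors with kallisto. Estimated counts were summed to genes here through the annotation (98.8% of transcripts matched) and rounded; 0.42% to 0.77% of counts per library lay on unmatched transcripts. The sums of the 7 genes matched the deposited gene TPM within 1%.

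Counts were fitted with edgeR 4.0.16 (R 4.3.3; TMM, filterByExpr, quasi-likelihood) in 1 model of 70 libraries, with p-values adjusted by Benjamini-Hochberg over 19980 genes. In limma 3.58.1, genes with at least 1 TPM in 2 libraries were tested on log2(TPM + 0.5), 20577 in all. Alternatives were DESeq2 1.42.0, other pseudocounts and filters, a replicate block and leaving out libraries. On simulated data for the ARH comparison, edgeR recovered 199 of 200 changed genes and called 2 unchanged genes, of 17875 tested. There limma recovered 198 and called 1, of 16386. The simulation gave all genes the same dispersion and, apart from the changes set in ARH, the same mean in all groups. Genes with few counts were not changed, and no animals were shared. It therefore checks the running of the fits and not the calls in these data. Total counts ranged from 9074581 to 22229582, and floors cover counting error only. Replicates differed beyond sampling noise, with a lowest chi-square per gene of 2.59 over 74 pairs.

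The 7 genes and the gene lists were chosen with earlier results of these data known. All 7 genes are described throughout; other genes are named as called members of the lists, as markers that moved with a result, or as the 5 genes most like each of the 7 by Pearson r over 22 regions (log2 of mean TPM + 1, among genes that reached 5 TPM or more in the mean of some region). Some genes of these lists are not reported here. The comparison of stage differences between areas was chosen after seeing the data.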

Additional observations from a re-analysis of the deposited data

Results flagged for a closer look

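Each of the 7 genes was examined in the groups of 4 libraries, 34 sets of values in all, and 5 held 1 library far from the other 3, where chance alone gives about 1 in 20. Ghrh was 0.311 TPM in CUL4,5 replicate 4 and 0 in the other 3 libraries of that lobule; the value is 1 count, and with the others at 0 any single read would have stood apart. In DMH, Sstr1 was 14.6 TPM in replicate 1, Sstr2 was 17.4 TPM in replicate 3, and Sstr3 was 8.7 TPM in replicate 2, each the highest of its group. Sstr2 was 2.28 TPM in FL replicate 1, above 0.701 to 0.786 TPM in the others.

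With edgeR, the stage difference was not the same in the hypothalamus and the hindbrain for Sstr2, with a log2 difference of -1.70 between areas, and for Sstr3, with -1.62 (adjusted p = 0.000782 and 0.00437). With limma on log2(TPM + 0.5) the Sstr3 difference was -0.79 and was not called. This comparison was added after the levels were seen.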

How the results depend on the processing

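Of 41 edgeR calls among the 7 genes, 35 were kept in every alternative run. The 6 others were Ghsr in PVH, in the hindbrain nuclei and in CBN, Ghrh in VTA, Sst in H, and Sstr3 in the comparison of stage differences. Both counts include calls that are not read because a region had 0 counts. Among the 35 these are Ghrh and Ghsr in the hypothalamus and Ghsr in VTA and the cerebellum. Among the 6 they are Ghrh in VTA and Ghsr in the hindbrain nuclei and CBN. The median gene of the VTA comparison was at -0.39 in the filtered limma fit, and the part of that shift was not tested. With limma on log2(TPM + 0.5), with or without the filter on low values, Ghrh in VTA stood at -0.28 and was not called. The same fits called 5 genes in ACB, as did DESeq2 and limma on log2(TPM + 0.1). In the hindbrain nuclei they called 0 genes, against 2 with limma on log2(TPM + 0.1), and in the comparison of stage differences they called 1. In ACB the added genes were Ghrh and Ghsr, and the cause was not tested for any of these shifts. Leaving out 1 library gave 0 to 1 calls in PVH, where the lone library left was assumed to vary like the other groups. In the other comparisons it moved the number of genes called by at most 1. In comparisons of broad areas, libraries of the areas compared against were not left out in turn, except VTA replicate 1.

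A replicate block changed 1 call: Sst in ARH rose to 1.01 and 4 genes were called there. Whether the replicate numbers pair the samples was not settled. Of 669 pairs with the same number, 183 correlated above 0.1, and the median r was 0.0195 (other pairs, -0.00568). Of 69 libraries, 29 correlated best with one of their own number. The shares that chance alone would give were not worked out. Depth limits Ghrh and Ghsr outside their main regions, where the median library held 4 and 5 counts over all regions.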
